A study of Mus musculus with 4 samples.

Results

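Receptors and ligands that macrophages use to take up dying cells, together with scavenger receptors, were followed across 4 arrays of mouse peritoneal macrophages. The set held 10 genes, chosen by name: the TAM receptor tyrosine kinases Mertk, Axl and Tyro3, their bridging ligands Gas6 and Pros1, and the scavenger receptors Stab1, Cd36, Msr1, Marco and Cd163. All 19 probe sets that name only 1 of these genes were taken, of 45101 on the array, and the whole series held 18193 named genes. The groups were Dap12-KO macrophages with interleukin-4 (IL-4), untreated Dap12-KO macrophages, wild type (WT) macrophages with IL-4 and untreated WT macrophages. All were drawn into the cavity with thioglycolate, an irritant, and kept on slides for 18 hours. DAP12 is the ITAM adaptor encoded by Tyrobp, and IL-4 is the cytokine known for alternative activation. The study asked how loss of DAP12 alters expression at rest and in the response to IL-4. Its design text speaks of a knockdown and its titles of a KO. The allele, strain, age and number of mice per array are not given in the sources used here. Each group was 1 array, so every difference between 2 arrays is a value with no replicate error and no test.

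TAM receptors do not bind dying cells directly. Gas6 and protein S (Pros1) attach to phosphatidylserine exposed on the dying cell and bridge it to the receptor, whose kinase then triggers engulfment and dampens inflammatory signalling. In mouse macrophages Mertk is best known from resting and glucocorticoid-treated cells and Axl from cells exposed to interferon or microbial products. Scavenger receptors bind modified lipoproteins, microbes and other polyanionic ligands, and several of them also take up dying cells.

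Values are log2 RMA values per probe set. A gene was called higher or lower where its brightest probe set differed by 2-fold or more, and comparisons across genes used the 12767 genes whose highest value reached a level floor of 6.39, the median of all values. All 10 genes passed this floor, Tyro3 only through the IL-4 array labelled Dap12-KO. Of the 19 probe sets, 15 lay above the floor on all 4 arrays, 2 on some and 2 on none. Levels of different probe sets cannot be set against each other.

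The IL-4 array labelled Dap12-KO stood apart. Its middle 50% of values spanned 2.54 log2 units, against 3.19 to 3.25 on the other 3 arrays. Its upper quartile was 8.01, against 8.50 to 8.56. The median gene differed by −0.40 between the IL-4 and untreated arrays labelled Dap12-KO and by −0.39 between the IL-4 arrays labelled Dap12-KO and WT. Comparisons that use this array are therefore given as deposited and after cyclic loess, which puts all arrays on a common level trend and gave medians of 0.07 and 0.11. The 3' over 5' log2 difference of the Gapdh control probe sets, a sign of RNA quality, was 1.63 on that array and 1.42 to 1.54 on the others. That of Actb was 0.51 and 0.63 on the arrays labelled Dap12-KO with IL-4 and untreated, against 0.43 and 0.39 on the WT arrays with IL-4 and untreated, so it was higher on both arrays labelled Dap12-KO. The part of RNA quality in the results below was not tested. Tyrobp read 13.27 and 14.03 on the arrays labelled Dap12-KO with IL-4 and untreated, against 14.13 and 14.39 on the WT arrays with IL-4 and untreated. These values do not bear out a loss of the transcript. Whether the probes lie outside the deleted part is not known, so genotype directions below rest on the labels alone. All 7 measured macrophage markers were above the floor on all 4 arrays. In bulk RNA, fewer cells of a type and less RNA per cell cannot be told apart.

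The sequences before the starts of the 3 genes called in the untreated genotype comparison are shown because Mertk and Gas6 were high together and Axl was low. They are the 250 bases before a RefSeq transcript start in GRCm38.p6, at chr2:128698665-128698914 on the plus strand for Mertk, chr8:13494536-13494785 on the minus strand for Gas6 and chr7:25788734-25788983 on the minus strand for Axl. The Mertk and Gas6 windows end where the annotated gene begins, whereas 191 of the 250 bases of the Axl window lie inside the annotated Axl gene. The Tyro3 and Cd36 windows, counted below but not shown, lie wholly inside their annotated genes. Capitals mark the GC box GGGCGG on either strand.
Mertk: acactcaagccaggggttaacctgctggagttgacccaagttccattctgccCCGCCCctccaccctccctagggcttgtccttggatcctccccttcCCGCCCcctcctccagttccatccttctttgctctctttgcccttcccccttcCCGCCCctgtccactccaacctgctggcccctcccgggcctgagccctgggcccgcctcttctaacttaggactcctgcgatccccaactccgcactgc
Gas6: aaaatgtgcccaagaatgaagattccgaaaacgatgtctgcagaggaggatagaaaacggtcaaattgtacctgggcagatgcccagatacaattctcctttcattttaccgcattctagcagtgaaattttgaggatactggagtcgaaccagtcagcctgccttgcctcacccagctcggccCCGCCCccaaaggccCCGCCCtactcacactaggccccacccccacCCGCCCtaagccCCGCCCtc
Axl: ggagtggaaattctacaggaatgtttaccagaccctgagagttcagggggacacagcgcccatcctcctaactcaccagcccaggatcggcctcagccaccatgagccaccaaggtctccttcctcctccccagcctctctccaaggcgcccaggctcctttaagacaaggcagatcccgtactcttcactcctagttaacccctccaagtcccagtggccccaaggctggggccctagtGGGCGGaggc
Mertk had 3 matches, Gas6 4 and Axl 1, and 6 of the 9 genes with a RefSeq entry had at least 1, where 32.7% of 32851 promoters of the same length did. G and C made up 63.6% of the Mertk window, 54.8% of the Gas6 window and 60.0% of the Axl window. The median over all promoters was 52.4%, and the comparison of GC box matches was not adjusted for this. The other motifs, searched on both strands, were the STAT6 motif, which is TTC and GAA with 4 bases between them (in 5.85% of all promoters), TTCNNNGAA (GAS, 7.02%), TGANTCA (AP-1, 6.75%), TGCTGAC (MAF, 3.81%) and CACGTG (E-box, 6.02%). GAS and STAT6 matches can overlap. These 5 had 0 matches in the Mertk, Gas6 and Axl windows, while the Pros1 window held 1 STAT6 and 1 GAS match. A match only describes the letters of the window.

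Without treatment, Mertk and Axl differed in opposite directions between the genotypes. Mertk read 11.29 on the array labelled Dap12-KO and 9.32 on the WT array, and Axl read 8.48 on the array labelled Dap12-KO and 10.60 on the WT array. Mertk was thus 3.91-fold higher and Axl 4.35-fold lower. Mertk ranked 30 from the top and Axl 64 from the bottom of 12767 genes. Both stayed past 2-fold after cyclic loess, at log2 differences of 2.07 and −2.02. The other Axl probe set read 4.57 on the array labelled Dap12-KO and 4.60 on the WT array, below the floor, and so carries no information on Axl.

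With IL-4, Axl remained apart between genotypes, whereas Mertk differed less. Axl read 7.92 on the array labelled Dap12-KO and 10.34 on the WT array, a log2 difference of −2.42, or −1.69 after cyclic loess. For Axl, both arrays labelled Dap12-KO lay below both WT arrays. Under IL-4 Mertk read 9.89 for Dap12-KO by label and 9.61 for WT, a log2 difference of 0.29 that became 1.01 after cyclic loess. For Mertk, both arrays labelled Dap12-KO lay above both WT arrays, and the untreated one stood out.

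IL-4 itself was accompanied by opposite signs for Mertk in the genotypes. The IL-4 over untreated log2 difference was −1.39 on the arrays labelled Dap12-KO, or −0.74 after cyclic loess, and 0.28 in WT. The difference of these responses was −1.68 as deposited and −1.06 after cyclic loess. For Axl the IL-4 difference was −0.56 on the arrays labelled Dap12-KO, turning to 0.11 after cyclic loess, and −0.26 in WT.

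Tyro3, the third TAM receptor, was under the level floor on 3 arrays and just above it on 1. Its brighter probe set read 6.72 and 6.11 on the arrays labelled Dap12-KO with IL-4 and untreated, against 5.76 and 5.88 on the WT arrays with IL-4 and untreated. Only the first of these reached the floor of 6.39, so the sizes of its differences rest on background readings. The other Tyro3 probe set lay between 4.56 and 5.19 on the 4 arrays.

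**Figure D1:**
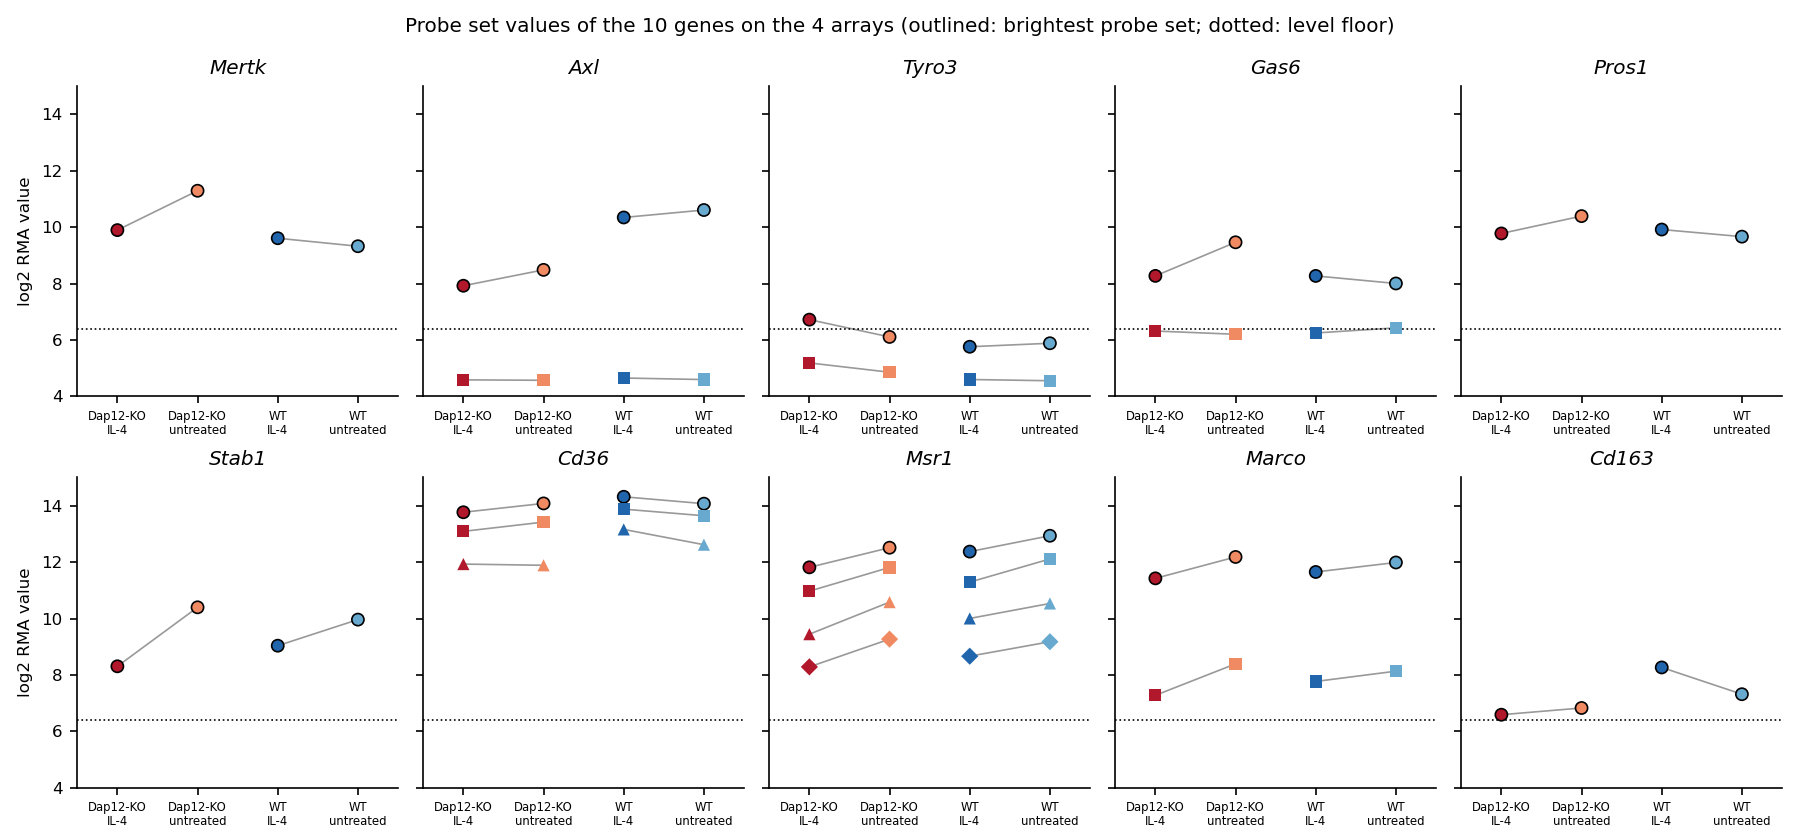
Log2 RMA value (vertical axis) of each probe set on the 4 arrays (horizontal axis), 1 panel per gene; lines join the arrays of a genotype, marker shapes separate probe sets, black outlines mark the brightest one and the dotted line is the floor of 6.39. Mertk and Gas6 peak on the array labelled untreated Dap12-KO (11.29 and 9.46), and Axl is lower on both arrays labelled Dap12-KO (7.92 and 8.48) than on both WT arrays (10.34 and 10.60).

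The brighter Gas6 probe set and, as deposited, Pros1 had their highest values on the same untreated array as Mertk. Gas6 read 8.27 and 9.46 on the arrays labelled Dap12-KO with IL-4 and untreated, against 8.27 and 8.0025 on the WT arrays with IL-4 and untreated. Without treatment Gas6 was 2.75-fold higher on the array labelled Dap12-KO, rank 127 from the top of 12767, with a log2 difference of 1.46, or 1.55 after cyclic loess. The second Gas6 probe set lay between 6.20 and 6.43, at the floor, and differed there by −0.23, so the call rests on 1 probe set. Gas6 was lower with IL-4 by a log2 difference of −1.19 on the arrays labelled Dap12-KO, or −0.57 after cyclic loess, and differed by 0.27 in WT.

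Pros1, the anticoagulant protein S that bridges to Mertk and Tyro3, differed less between the arrays. It read 9.78 and 10.39 on the arrays labelled Dap12-KO with IL-4 and untreated, against 9.91 and 9.66 on the WT arrays with IL-4 and untreated. The untreated genotype difference of 0.73 did not reach 2-fold, nor did it after cyclic loess (0.83). After cyclic loess its highest value was 10.33, with IL-4 and Dap12-KO by label, against 10.28 on the untreated array of that label. Its IL-4 difference on these arrays was −0.61 as deposited and 0.04 after cyclic loess, and 0.25 in WT. With IL-4 the genotype difference was −0.14 as deposited and 0.59 after cyclic loess, so its sign followed the scaling.

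**Figure D2:**
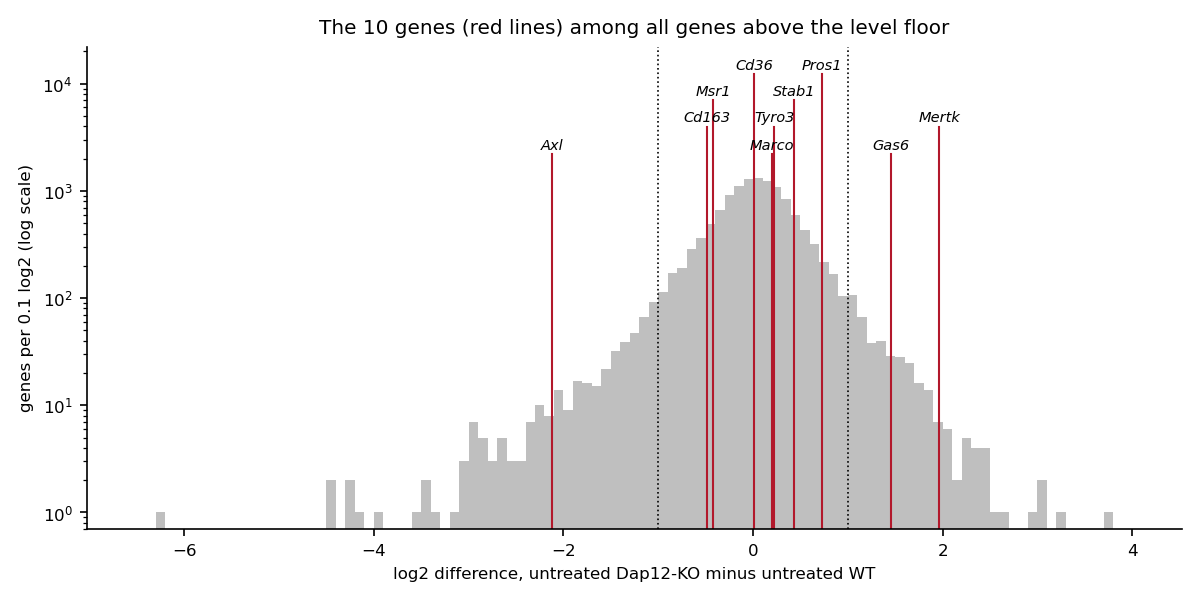
Number of genes (vertical log axis) by log2 difference of the array labelled untreated Dap12-KO minus the untreated WT array (horizontal axis), for 12767 genes; red lines are the 10 genes and dotted lines mark 2-fold. Axl (−2.12) lies in the lower tail, Gas6 (1.46) and Mertk (1.97) in the upper tail, and the other 7 genes lie within 2-fold.

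Among the scavenger receptors, Stab1 was lower with IL-4 in both genotypes. Stab1, or stabilin-1, is an endocytic receptor that also binds phosphatidylserine. It read 8.31 with IL-4 and 10.40 untreated on the arrays labelled Dap12-KO, and 9.04 with IL-4 and 9.96 untreated on the WT arrays. The log2 differences were −2.09, or −1.42 after cyclic loess, on the arrays labelled Dap12-KO and −0.92 in WT, just short of 2-fold. These lay at rank 165 and rank 199 from the bottom of 12767 genes. Its genotype differences were 0.44 untreated and −0.73 with IL-4, the second being 0.00 after cyclic loess.

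Msr1 and Marco, class A scavenger receptors that bind modified lipoproteins and bacteria, were lower with IL-4 in all 6 of their probe sets in both genotypes, mostly by less than 2-fold. The brightest Msr1 probe set read 11.82 with IL-4 and 12.51 untreated on the arrays labelled Dap12-KO, and 12.37 with IL-4 and 12.94 untreated on the WT arrays. Across the 4 Msr1 probe sets the IL-4 difference lay between −1.14 and −0.70 on the arrays labelled Dap12-KO and between −0.82 and −0.51 in WT. Marco's brighter probe set read 11.43 with IL-4 and 12.18 untreated on the arrays labelled Dap12-KO, and 11.65 with IL-4 and 11.99 untreated on the WT arrays. All IL-4 differences of both genes stayed negative after cyclic loess, with −0.19 and −0.21 for the brightest Msr1 and Marco probe sets on the arrays labelled Dap12-KO. Genotype differences of these brightest probe sets were −0.42 for Msr1 and 0.20 for Marco untreated. With IL-4 they were −0.56 for Msr1 and −0.23 for Marco, and cyclic loess turned Marco to 0.38 and left Msr1 at 0.00 to 2 decimals.

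Cd36, a receptor for oxidised lipoproteins, fatty acids and thrombospondin, was bright throughout. Its brightest probe set read 13.77 and 14.08 on the arrays labelled Dap12-KO with IL-4 and untreated, against 14.32 and 14.07 on the WT arrays with IL-4 and untreated. Its 3 probe sets differed in sign between the untreated genotypes, but under IL-4 all 3 were lower for Dap12-KO by label than for WT. The dimmest read 11.93 and 11.89 on the arrays labelled Dap12-KO with IL-4 and untreated, against 13.16 and 12.62 on the WT arrays. The genotype difference of this probe set was −0.73 without treatment and −1.23 under IL-4, and cyclic loess gave −0.65 and −0.67. The brightest had 0.01 and −0.55, and cyclic loess gave 0.07 and −0.15. The third had −0.22 and −0.79, and cyclic loess gave −0.15 and −0.33. In WT all 3 were higher with IL-4, by 0.23 to 0.54.

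Cd163, the receptor for haptoglobin-haemoglobin complexes, was highest on the WT array with IL-4. It read 6.59 and 6.83 on the arrays labelled Dap12-KO with IL-4 and untreated, against 8.27 and 7.32 on the WT arrays with IL-4 and untreated. Both values of the arrays labelled Dap12-KO lay just above the floor of 6.39, so the sizes of these differences are uncertain. The IL-4 difference was −0.24 on the arrays labelled Dap12-KO, turning to 0.02 after cyclic loess, and 0.95 in WT, rank 173 from the top. Between the IL-4 arrays Cd163 was 3.19-fold lower on the one labelled Dap12-KO, at −1.67, or −1.41 after cyclic loess.

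**Figure D3:**
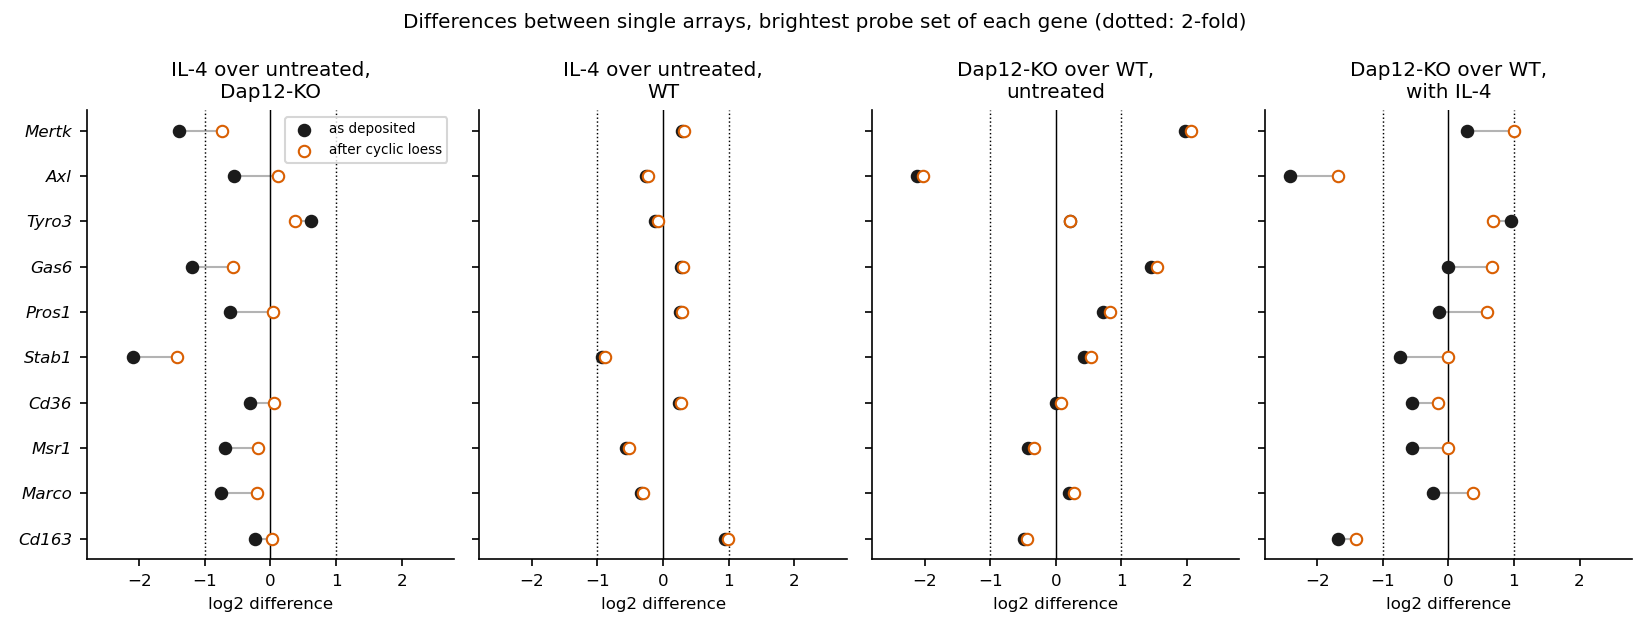
Log2 difference (horizontal axis) of the brightest probe set of each gene (rows) in 4 comparisons of single arrays; black points are as deposited, open orange points after cyclic loess, dotted lines mark 2-fold. The 2 middle panels, which do not use the IL-4 array labelled Dap12-KO, barely move with the scaling, while in the outer panels Stab1 moves from −2.09 to −1.42 (left) and Axl from −2.42 to −1.69 (right).

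Counted over the set, the untreated genotype comparison had 2 of 10 genes higher (Mertk and Gas6), 1 lower (Axl) and 7 neither. Over all 12767 genes 3.12% were higher and 3.41% lower, and after cyclic loess, with the same 3 genes past 2-fold, 3.74% and 2.94%. The set's median was 0.21 and that of all genes 0.03. With IL-4, 0 of 10 were higher and 2 lower on the array labelled Dap12-KO than on the WT array (Axl and Cd163), where 10.9% of all genes were higher and 17.6% lower. The share of lower members was thus close to that of all genes. After cyclic loess 1 was higher (Mertk) and the same 2 were lower, where 12.6% and 5.51% of all genes were.

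For IL-4 on the arrays labelled Dap12-KO, 0 of 10 genes were higher and 3 lower (Mertk, Gas6 and Stab1), where 8.04% of all genes were higher and 17.6% lower. After cyclic loess 0 were higher and only Stab1 was lower, where 9.95% and 6.07% of all genes were. In WT, 0 of 10 genes passed 2-fold in either direction, where 1.21% of all genes were higher and 1.25% lower. The same held after cyclic loess, where 1.33% and 1.13% of all genes were. The WT differences ran from −0.92 for Stab1 to 0.95 for Cd163 with a median of 0.06. The difference of the IL-4 responses passed 2-fold downward for 4 genes (Mertk, Gas6, Stab1 and Cd163), where 14.8% of all genes did, and upward for 0, where 8.15% did. After cyclic loess it did so downward for Mertk alone and upward for 0, where 5.75% and 9.0% of all genes did. These comparisons share arrays, so their values are not independent of each other.

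**Figure D4:**
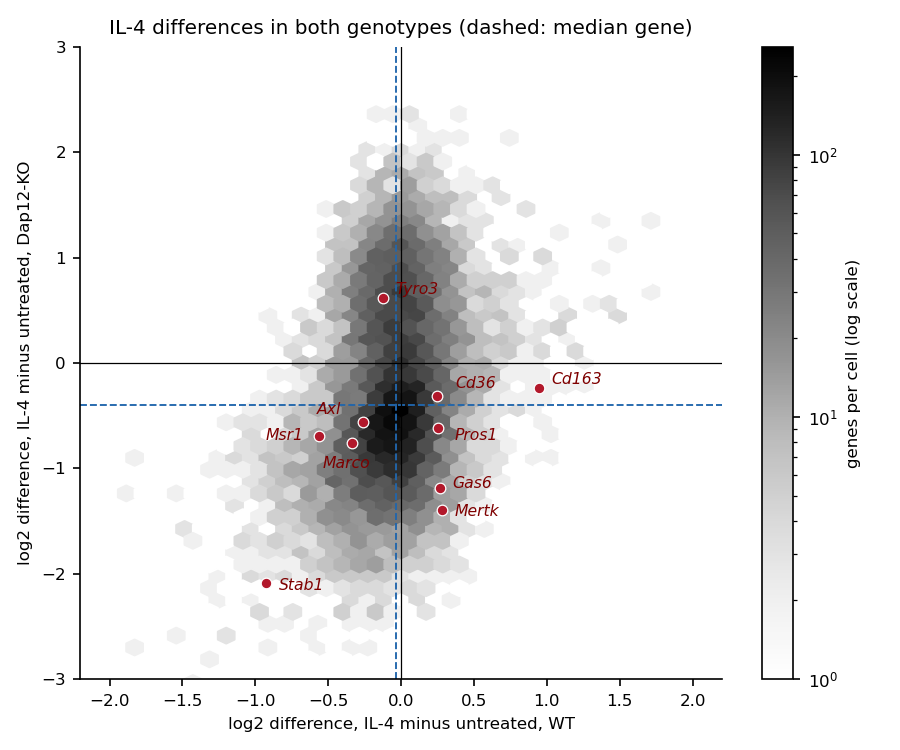
IL-4 over untreated log2 difference in WT (horizontal axis) and on the arrays labelled Dap12-KO (vertical axis), with genes per cell as grey shading on a log scale, the 10 genes in red and the median gene dashed; genes beyond the axes are not drawn. Stab1 is low on both axes (−0.92 and −2.09), Mertk (0.28 and −1.39) and Gas6 (0.27 and −1.19) are above 0 in WT and below the median gene on the arrays labelled Dap12-KO, and Cd163 is highest in WT (0.95).

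IL-4 could be tested over both genotypes together, with limma and the genotypes as the only replicates. Stab1 fell by 1.51 on the log2 scale (SE 0.42, adjusted p = 0.0256, limma with Benjamini-Hochberg adjustment over 12767 genes), being lower with IL-4 in 2 of 2 genotypes. The other 9 genes did not pass, with differences between −0.63 for Msr1 and 0.35 for Cd163. Over all genes 0.54% rose and 1.1% fell. The fit had 1 residual degree of freedom and gave every gene the same standard error, so whether a gene passed depended only on how large its difference was. Its p-values rest on how far the IL-4 differences of the 2 genotypes lay apart, pooled over all genes. They do not measure the spread of a single gene or between mice, and part of that gap may be technical. After cyclic loess Stab1 had a difference of −1.15 and an adjusted p of 0.547 (limma), and 0 genes passed, with 814 at an unadjusted p under 0.05.

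Other genes of efferocytosis were taken from lists that leave out the 10 genes. Of 24 other receptors and bridging molecules above the floor, 3 were higher and 1 lower on the array labelled untreated Dap12-KO. After cyclic loess 4 were higher and 1 lower. Over all genes 3.12% were higher and 3.41% lower as deposited, or 3.74% and 2.94% after cyclic loess. The phosphatidylserine receptor Cd300lf read 11.92 on the array labelled Dap12-KO and 9.27 on the WT array. Havcr2, or TIM-3, read 9.44 on the array labelled Dap12-KO and 7.66 on the WT array. The integrin chain Itgb5 was higher by 1.09. Itgb3, another integrin chain that pairs with alpha v to bind the bridging protein Mfge8, differed by −2.97. These are the brightest of 4 probe sets for Itgb5 and of 2 for Itgb3. The list's median was 0.26, against 0.03 for all genes. Of 24 engulfment and digestion genes, 0 passed 2-fold in that comparison. They ranged from the Rac activator subunit Elmo2 at −0.87 to the lysosomal cholesterol transporter Npc1 at 0.65.

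Of 12 other scavenger receptors, 0 were higher and 1 lower without treatment, the oxidised lipoprotein receptor Olr1 at −1.05. After cyclic loess 1 was higher and 0 lower, with Olr1 at −0.96 and the lysosomal receptor Scarb2 at 1.07, against 0.98 as deposited. The Scarb2 values are those of the brighter of 2 probe sets. Over all genes 3.12% were higher and 3.41% lower in this comparison, or 3.74% and 2.94% after cyclic loess. Of 17 transcription factors, signalling genes and sheddases tied to the 10 genes in the literature, 3 were higher and 0 lower. The counts were the same after cyclic loess. Maf, a transcription factor of macrophage maturation, read 11.35 on the array labelled untreated Dap12-KO and 9.16 on the WT array. Tsc22d3, the glucocorticoid-induced leucine zipper, read 10.78 on the array labelled untreated Dap12-KO and 9.14 on the WT array. These are the brightest of 6 probe sets for Maf and of 4 for Tsc22d3. Rxra, the retinoid X receptor that partners LXR and PPAR, was higher by 1.14 in the brightest of its 3 probe sets.

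**Figure D5:**
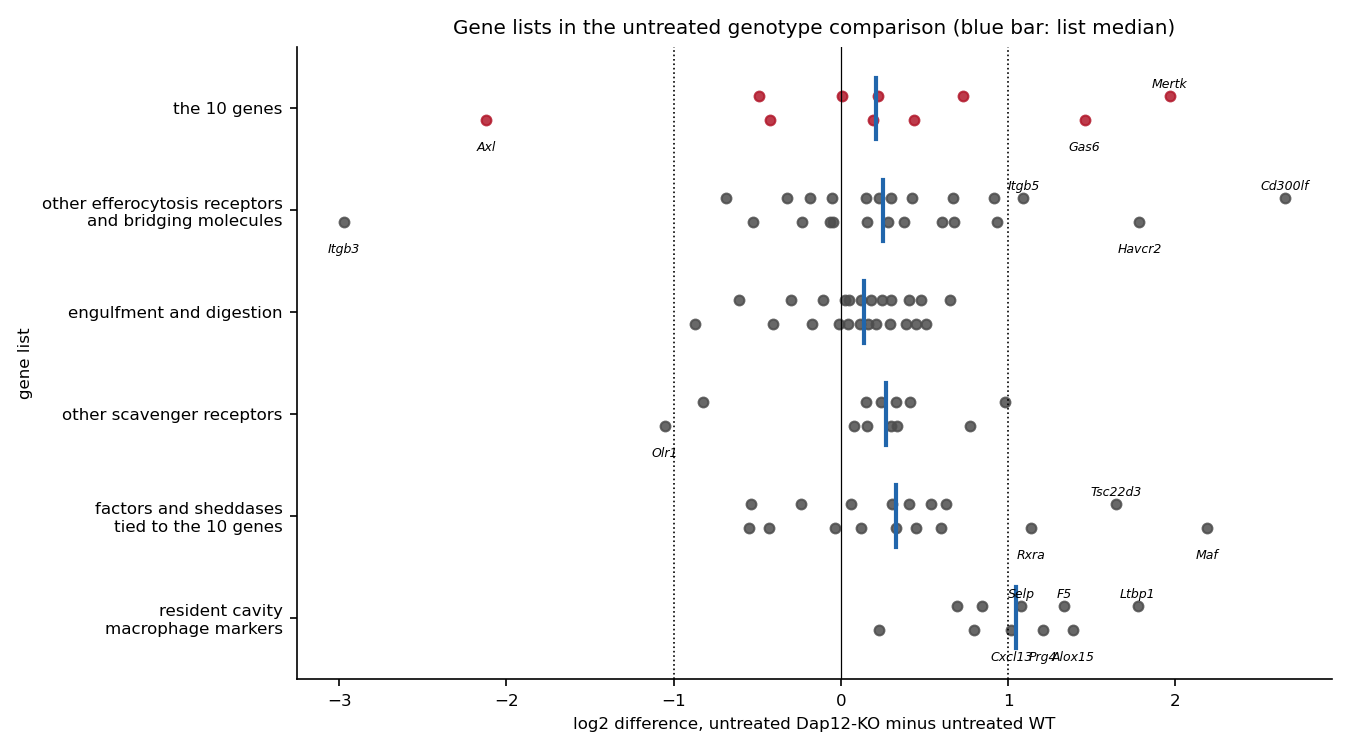
Log2 difference of the array labelled untreated Dap12-KO minus the untreated WT array (horizontal axis) for each gene above the floor, by gene list (rows); blue bars are list medians, dotted lines mark 2-fold and genes past it are named. The 10 genes (red) run from Axl (−2.12) to Mertk (1.97), and the resident cavity macrophage markers have a median of 1.05.

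Under IL-4 in WT, 1 of the 24 other receptors was higher and 1 lower, Itgb3 at 2.10 and the lipopolysaccharide co-receptor Cd14 at −1.22. Of the 12 other scavenger receptors 1 was higher, the mannose receptor Mrc1 at 2.21. Of the 24 engulfment genes 0 passed 2-fold. For comparison, 1.21% of 12767 genes passed upward and 1.25% downward. On the arrays labelled Dap12-KO with IL-4, 2 of the 24 other receptors were higher and 5 lower, or 2 and 3 after cyclic loess, led by Havcr2 at −2.96 and Itgb3 at 2.71. Of the 12 other scavenger receptors 3 were higher and 4 lower there, or 3 and 1 after cyclic loess, led by the collectin Colec12 at −2.36. The 24 engulfment genes had 0 higher and 4 lower there, or 1 and 0 after cyclic loess. Over all genes 8.04% were higher and 17.6% lower, or 9.95% and 6.07% after cyclic loess, and the shares of the other receptors and engulfment genes that were lower as deposited were near this. In the limma fit over both genotypes Itgb3 rose by 2.41, Mrc1 by 1.997 and Socs1, an inhibitor of cytokine signalling, by 1.90 on the log2 scale. Havcr2 fell by 1.60. After cyclic loess 0 of these 4 genes passed the test, while the differences of Itgb3, Mrc1 and Socs1 stayed large in both genotypes. The IL-4 difference was then 3.36 on the arrays labelled Dap12-KO and 2.14 in WT for Itgb3, 2.31 and 2.24 for Mrc1, and 2.48 and 1.63 for Socs1. That of Havcr2 was −2.50 on the arrays labelled Dap12-KO, and this response minus that in WT was −2.30. As deposited Havcr2 read 6.49 and 9.44 on the arrays labelled Dap12-KO with IL-4 and untreated, the first near the floor. The WT arrays read 7.41 with IL-4 and 7.66 untreated. The fall of Havcr2 thus lay mostly on the arrays labelled Dap12-KO.

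Markers of resident cavity macrophages moved with the untreated genotype comparison. Of 10 such markers 6 were higher and 0 lower on the array labelled Dap12-KO, with a median of 1.05. After cyclic loess the counts were the same and the median was 1.14. Over all genes 3.12% were higher and 3.41% lower in that comparison, or 3.74% and 2.94% after cyclic loess, and the median was 0.03 as deposited. The log2 values of the 10 resident markers summed to 89.3 and 93.0 on the arrays labelled Dap12-KO with IL-4 and untreated. On the WT arrays with IL-4 and untreated they summed to 85.5 and 82.6. All marker sums here are as deposited. Between the IL-4 arrays, 2 of the 10 were higher and 0 lower on the one labelled Dap12-KO, with a median of 0.38. After cyclic loess 5 were higher and 0 lower, with a median of 0.95. Over all genes 10.9% were higher and 17.6% lower there, or 12.6% and 5.51% after cyclic loess. All 10 resident markers were above the floor on at least 1 array. Of 4 measured B cell markers 2 were higher and 0 lower without treatment, or 3 and 0 after cyclic loess. Their log2 values summed to 35.4 and 37.9 on the arrays labelled Dap12-KO with IL-4 and untreated, against 34.9 and 34.1 on the WT arrays with IL-4 and untreated. The median genotype difference of B cell markers was 1.04 untreated, or 1.13 after cyclic loess. With IL-4 it was 0.06, or 0.67 after cyclic loess. Of 3 mast cell markers above the floor 1 was higher and 0 lower without treatment, as after cyclic loess. Their median was 0.93, or 0.97 after cyclic loess, with Cma1 at 1.34 as deposited. Mcpt4 and Kit were below the floor on all arrays. The log2 values of 5 mast cell markers summed to 32.5 and 35.9 on the arrays labelled Dap12-KO with IL-4 and untreated, against 32.1 and 32.8 on the WT arrays with IL-4 and untreated. Of 3 mesothelium and fibroblast markers above the floor 0 were higher and 2 lower without treatment, Col3a1 at −1.30 and Dcn at −1.08, with a median of −1.08, or −1.02 after cyclic loess. Msln, Upk3b and Col1a1 were below the floor on all arrays, and the log2 values of 6 such markers summed to 38.7 and 35.6 on the arrays labelled Dap12-KO with IL-4 and untreated, against 37.5 and 37.7 on the WT arrays with IL-4 and untreated. Neutrophil, eosinophil, T and NK cell and dendritic cell markers had 0 genes past 2-fold in the untreated genotype comparison. The part of these cell types in the values of Mertk, Gas6 and Axl was not tested.

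The genes whose pattern over the 4 arrays lay nearest to a member were sought for the 6 members that spanned at least 1 log2 unit, by the root mean square difference of values centred on their mean. For Mertk these were P2ry14 (0.13), Cdo1 (0.13) and Tent5c (0.14), and for Axl Micu3 (0.09), Gramd1b (0.10) and Vegfa (0.13). For Gas6 they were Zcchc24 (0.03), Ang (0.05) and Cipc (0.06), and for Stab1 Btla (0.04), Nfkbiz (0.07) and Pir (0.10). Ext1, Gramd1a and Adck5 (0.02, 0.03 and 0.04) lay nearest to Msr1, and Pfdn1, Fermt2 and Agpat3 (0.07, 0.11 and 0.12) to Cd163. The orders rest on 4 arrays among 12767 genes, and many changed with the scaling. After cyclic loess Cdo1 fell to rank 436 for Mertk, Micu3 to 66 for Axl, and Btla and Pir to 51 and 455 for Stab1. Ext1 and Gramd1a fell to ranks 11 and 9 for Msr1. Pfdn1, Fermt2 and Agpat3 fell to ranks 46, 17 and 136 for Cd163. The genes named for Gas6 stayed at ranks 1 to 3, and the remaining named genes lay at ranks 1 to 4.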

How the data were processed

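Total RNA of 4 mouse macrophage samples, 1 per group by title, was hybridised to 1-colour Affymetrix arrays after 2 cycles of amplification, per the labels' protocols. The authors deposited 1 log2 value per probe set, and RMA is the tool in the submitters' processing notes, without a version. No detection calls were used, and the number of arrays limits the precision.

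Gene names came from the platform annotation in GEO, and 34741 symbols were brought up to date by Entrez identifier with RefSeq's GRCm38.p6 table. The 45101 probe sets comprised 34945 with 1 gene, 932 with several, 9160 with no gene name and 64 controls. Each gene was represented by its brightest probe set, all member probe sets were examined, and the floor was 6.39. Differences are IL-4 minus untreated, or Dap12-KO minus WT, log2 values. Promoter sequences are from RefSeq (GRCm38.p6) and 9 of 10 members matched; Msr1 did not.

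IL-4 over both genotypes was fitted with limma 3.58.1 in R 4.3.3 (lmFit and eBayes), taking genotype as the block. Genotype was not tested, because the labels do not tell whether the arrays of 1 genotype share mice. Cyclic loess used 3 iterations. Other steps used Python 3.11.15, numpy 2.4.6, pandas 2.3.3 and matplotlib 3.10.9. Alternatives were cyclic loess, quantile normalization, median centring, probe set medians, single probe sets, dropping the floor, raising it to the 75th percentile, a threshold of 3-fold, an intensity trend and no genotype term. The members and lists were chosen with earlier results of these data known. Named genes were the members, Tyrobp, up to 4 genes with the largest difference per list and comparison, and the 3 nearest patterns. Ranks, motifs and printed promoters were chosen after values had been seen. Eosinophil, T and NK cell, mast cell, mesothelial, dendritic cell and neutrophil markers were also examined: 2 of 5, 2 of 4, 3 of 5, 3 of 6, 4 of 5 and 6 of 7 measured reached the floor on some array.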

Additional observations from a re-analysis of the deposited data

Results flagged for a closer look

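The IL-4 difference had opposite signs on the arrays labelled Dap12-KO and on the WT arrays for 6 of the 10 genes. Each came from single arrays, so the difference between the genotypes was not tested. The share of all genes with opposite signs was not counted. The median gene had −0.40 on the arrays labelled Dap12-KO and −0.03 in WT, so the count cannot be read as a trait of these genes. The response on the arrays labelled Dap12-KO minus that in WT was −1.68 for Mertk, −1.46 for Gas6, −1.19 for Cd163, −0.87 for Pros1, −0.56 for Cd36 and 0.74 for Tyro3, where the median gene had −0.36. After cyclic loess these were −1.06, −0.88, −0.97, −0.25, −0.23 and 0.46, and the signs were opposite for Mertk, Gas6, Tyro3 and also Axl, at 0.11 on the arrays labelled Dap12-KO and −0.22 in WT. The Tyro3 values rest on background readings.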

How the results depend on the processing

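Comparisons without the IL-4 array labelled Dap12-KO were steady: under the 3 scalings 0 of 10 members changed sign for IL-4 in WT and 1 (Cd36, near 0) for the untreated genotype comparison, and 0 changed their side of 2-fold in either. With that array, members changed sign in 4 cases for IL-4 in Dap12-KO, 4 for genotype with IL-4 and 3 for the difference of responses. The cause was not tested. Higher and lower counts below follow the order IL-4 in Dap12-KO, IL-4 in WT, genotype untreated, genotype with IL-4 and difference of responses. As deposited, all genes counted 1026 and 2249, 155 and 160, 398 and 435, 1387 and 2245, and 1041 and 1893. A 3-fold threshold gave 243 and 568, 61 and 31, 91 and 138, 456 and 530, and 213 and 449, and left 1 member lower for IL-4 in Dap12-KO (Stab1), 1 higher untreated (Mertk) and 1 lower for the difference (Mertk). Every probe set on its own, which counts more features, gave 1625 and 4207, 256 and 242, 611 and 826, 2213 and 4840, and 1664 and 3823, with 5 member probe sets lower for IL-4 in Dap12-KO. Cyclic loess gave 755, 686 and 716 lower genes for IL-4 in Dap12-KO, genotype with IL-4 and the difference, with 1238, 1572 and 1120 higher. Of the members, 1 was then lower for IL-4 in Dap12-KO, 1 higher and 2 lower for genotype with IL-4, and 1 lower for the difference. Quantile normalization gave 1109, 1002 and 1003 lower genes in the same 3 comparisons, with 1, 2 and 2 members lower. A floor at the 75th percentile left 329, 314 and 275 higher genes and, with IL-4, 1 member lower between genotypes, since Cd163 and Tyro3 were not counted. By the median over probe sets 1 member (Mertk) was higher untreated, as the Gas6 median includes its dim probe set. That Gas6 probe set had the opposite sign, at 0.12 for IL-4 in Dap12-KO, −0.23 untreated and 0.30 for the difference.

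The limma fit called 69 genes higher, 141 lower and 1 member. It called 0, 0 and 0 after cyclic loess, after quantile normalization and with no floor, with 814, 598 and 962 genes at an unadjusted p under 0.05. Without a genotype term it called 7, 0 and 0, and with an intensity trend 71 lower genes and 0 members. The adjusted p of Stab1 ranged from 0.011 to 0.791 over these limma fits, and its difference was −1.15 after cyclic loess and −1.21 after quantile normalization. Pros1 and Cd36, not called in any, turned to 0.17 and 0.17 after cyclic loess and to 0.12 and 0.17 after quantile normalization. The genotype block was the one pairing the labels gave, since no replicate numbers exist.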
